A study of Mus musculus with 4 samples.

Results

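Type I interferon-stimulated genes outside the OAS family were followed through the immune cells of the mouse liver. The set holds 44 genes chosen by name, and 43 of them were found by symbol among the 31053 genes of the matrix. Mx2 was not analysed here. The cells came from male mice, 8 weeks of age per the labels, that carried MC38 tumours (a mouse colon cancer cell line) in a model where surgical stress promotes metastasis to the liver. There were 2 libraries from sedentary animals (Sed) and 2 from animals given preoperative exercise (Ex, also written PEx). Mice of both groups, the sedentary controls included, had the tumour, and livers were taken 3 weeks after its injection. Hepatic cells other than hepatocytes were enriched on CD45 beads, and no tumour-free or unoperated animals enter any comparison. The sources used here do not say whether a library holds 1 animal or several, or whether the libraries came from separate animals. The p-values therefore measure only the spread between these libraries, which may be technical.

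Type I interferons are secreted by cells that sense viral or misplaced nucleic acid. They bind a receptor of the subunits Ifnar1 and Ifnar2, which passes the signal through the kinases Jak1 and Tyk2 to a complex of transcription factors. That complex binds the interferon-stimulated response element in the promoters of many genes. The products block viral translation, degrade RNA, tag proteins with the ubiquitin-like Isg15 or raise the level of the sensors themselves. In the liver, Kupffer cells, the resident macrophages of the sinusoids, and incoming monocytes and neutrophils are known to respond. Interferon gamma, made by T and NK cells, acts through another receptor and induces a partly shared set of genes.

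The promoters of several members carry the letters of that element. Whether members that carry these letters differed from one another in their changes was not tested. Ifit1, Ifit3 and Isg15 had negative changes in Kupffer-like cells that did not pass the test there. Those changes differed from the ones in CD8 T-like cells. Phf11b was called lower in monocyte-like cells, and its change in Kupffer-like cells was negative as well (-0.29). RefSeq promoters (build GRCm38.p6) matched 32 of the 44 members, 5 of them with more than 1 listed start, of which the first was used. Capitals mark matches to the letters GAAA, any 2 bases and GAAA on either strand within 250 bases before the start. Each sequence is written 5′ to 3′ on the strand of its gene. The windows lie upstream of the gene starts, outside exons of the listed transcript.

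Ifit1 (chr19:34640770-34640828, plus strand): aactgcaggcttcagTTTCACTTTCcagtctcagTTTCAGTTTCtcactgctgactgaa
Ifit3 (chr19:34583358-34583431, plus strand): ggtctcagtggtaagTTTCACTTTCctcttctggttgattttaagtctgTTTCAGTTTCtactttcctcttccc
Isg15 (chr4:156200860-156200911, minus strand): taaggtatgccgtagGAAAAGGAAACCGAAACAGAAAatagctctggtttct
Rsad2 (chr12:26456548-26456587, minus strand): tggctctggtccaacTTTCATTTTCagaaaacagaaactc
Phf11b (chr14:59341356-59341395, minus strand): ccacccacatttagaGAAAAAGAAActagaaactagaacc
Ifi213 (chr1:173599321-173599360, minus strand): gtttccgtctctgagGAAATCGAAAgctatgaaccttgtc
Slfn8 (chr11:83020834-83020873, minus strand): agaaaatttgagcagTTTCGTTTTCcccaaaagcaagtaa

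The letters were present in 14 of the 32 member promoters (43.8%) and in 821 of the 27025 promoters of the table (3.04%). Isg15 held 3 overlapping matches, and Ifit1 and Ifit3 held 2 each. The window of Ifit3b was identical in sequence to that of Ifit3, so promoter letters cannot tell the paralogs apart, and reads of such near-identical copies may have been split or dropped in counting. The windows of Trim30a and Trim30d were also identical, and those of Phf11a and Phf11b nearly so. The limit on counting may touch these pairs as well. TTC, any 3 bases and GAA, the letters of the element that interferon gamma uses, occurred in 5 of the 32 (15.6%) and in 1940 of all promoters (7.18%), with overlaps between both motifs counted under each. These are matches of letters, not measured binding.

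The 4 libraries held 5297 to 8224 barcodes and 23918964 to 41027638 UMIs (unique molecular identifiers, the counted molecules). After filters 23840 cells were left, 4097 to 7141 per library, at a median of 3284 to 3749 UMIs. Median mitochondrial shares were 2.61% and 2.95% in Sed and 3.92% and 4.35% in Ex. Any 2 libraries shared 7 to 25 barcodes. A UMI of Ptprc, the gene of CD45, was present in 76.2% to 81.9% of the cells of a library and in 8.07% of the 483 endothelial-like cells, which came from Ex libraries alone. Cells were clustered without the interferon genes, and clusters were named from markers with the ending -like. UMIs were then summed per library and class, and a level below is in counts per 1e6 UMIs of such a sum (CPM). In a sum, fewer cells with the RNA and less RNA per cell cannot be told apart. A class was tested where each library held 30 or more of its cells, which left 12, with edgeR's quasi-likelihood test, adjusted by Benjamini-Hochberg over all genes of the class. A gene is called higher or lower at an adjusted p under 0.05. Log2 changes are Ex minus Sed, with the standard error of the fit.

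The number of members that were lower in both Ex libraries ranged over the classes from 4 to 35 of 43. Of the 43 members, 34 had both Ex libraries below both Sed libraries in B-like cells, where 13.6% of all genes did. The count was 35 in Kupffer-like cells (27% of all genes), 35 in cycling cells (18.5%), 31 in monocyte-like cells (24.2%), 23 in ILC1-like cells (14.6%), 21 in neutrophil-like cells (12%), 18 in cDC1-like cells (13.2%), 17 in CD8 T-like cells (34.3%) and 16 in CD4 T-like cells (16.7%). In other macrophage-like cells it was 13 (29%), and in NK-like and Treg-like cells 4 each (15.9% and 17.7%). The opposite order, both Ex libraries above both Sed libraries, held for 9 members in NK-like cells (32.8% of all genes), 7 in other macrophage-like cells (21%), 6 in Treg-like cells (21.8%), 5 in CD8 T-like cells (23.3%) and 5 in neutrophil-like cells (32.2%), which are shares at or below those of all genes. It held for 3 in cDC1-like cells (33.8%), for 1 each in monocyte-like (24%), CD4 T-like (26.9%) and ILC1-like cells (29.2%), and for none in B-like, Kupffer-like and cycling cells. These counts cover all 43 members, while the shares of all genes cover only genes with enough counts to test. Among tested members, the lower counts became 16 of 27 (ILC1-like), 16 of 40 (CD8 T-like), 15 of 34 (CD4 T-like) and 3 of 34 (Treg-like). The higher counts became 6 of 35 (NK-like), 5 of 34 (Treg-like), 4 of 40 (neutrophil-like), 1 of 39 (cDC1-like) and 0 of 34 (CD4 T-like).

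**Figure D1:**
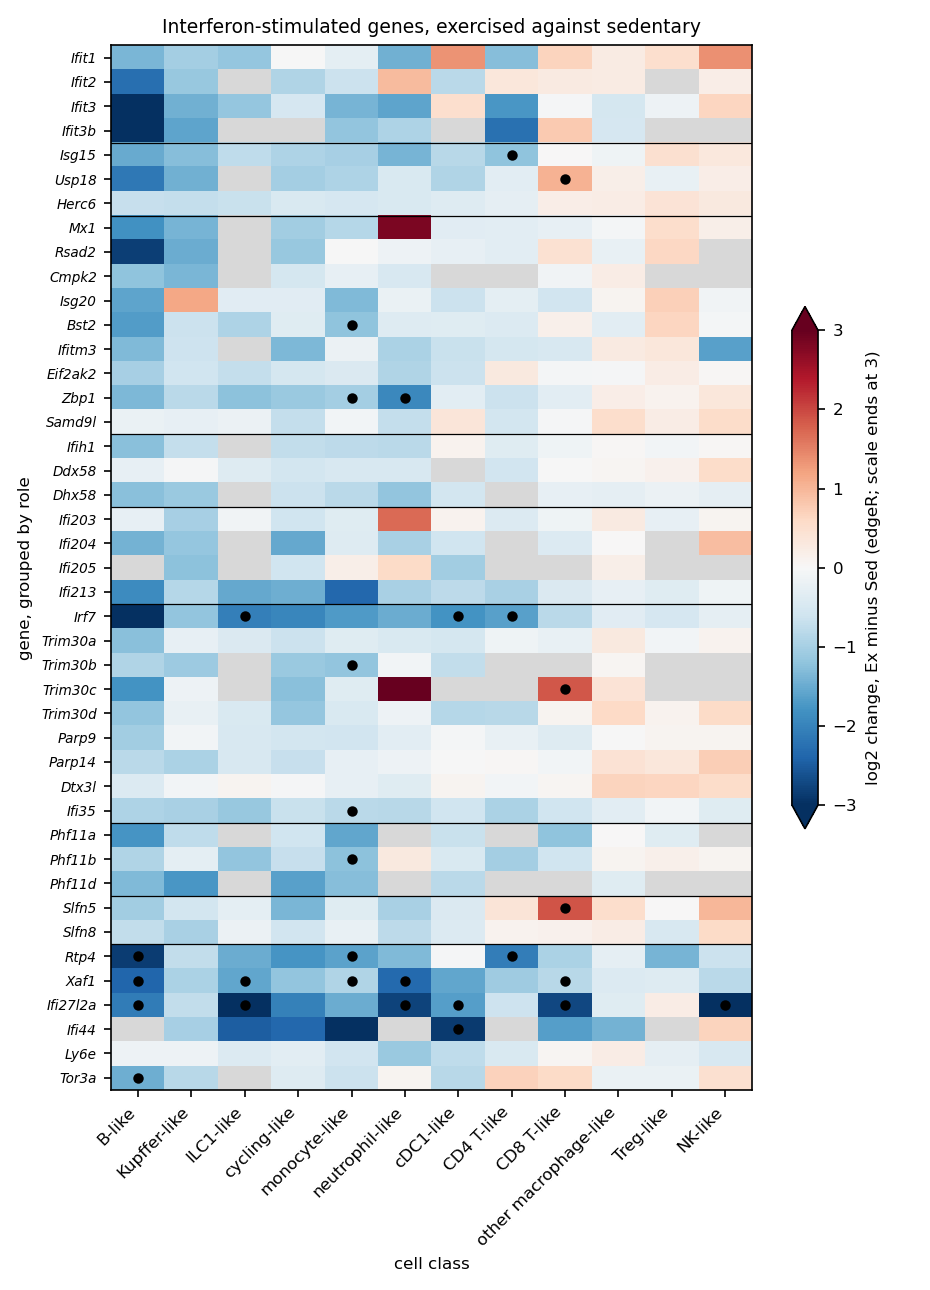
Log2 change (Ex minus Sed, edgeR) of each of the 43 members (rows, grouped by role with lines between the roles) in the 12 tested classes (columns, ordered by median change). Blue is lower and red higher in Ex, grey marks genes too low to test and dots mark an adjusted p under 0.05. B-like cells have the lowest median (-1.33) and NK-like cells the highest (0.18).

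The filter on low counts passed between 27 members (ILC1-like) and 43 (Kupffer-like, monocyte-like and other macrophage-like). A gene can pass it through its higher group alone, so medians over tested members serve only as a description. They were -1.33 in B-like cells, -0.86 in Kupffer-like cells, -0.72 in ILC1-like cells, -0.70 in cycling cells, -0.65 in monocyte-like cells and -0.60 in both neutrophil-like and cDC1-like cells. In CD4 T-like cells the median was -0.44 and in CD8 T-like cells -0.10. It was 0.05 in other macrophage-like cells, 0.10 in Treg-like cells and 0.18 in NK-like cells, while the median of all genes tested lay between -0.02 and 0.02 in every class. Without Ex 1 the medians in NK-like and Treg-like cells were -0.67 and -0.35, and without Ex 2 the median in CD8 T-like cells was 0.08.

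**Figure D2:**
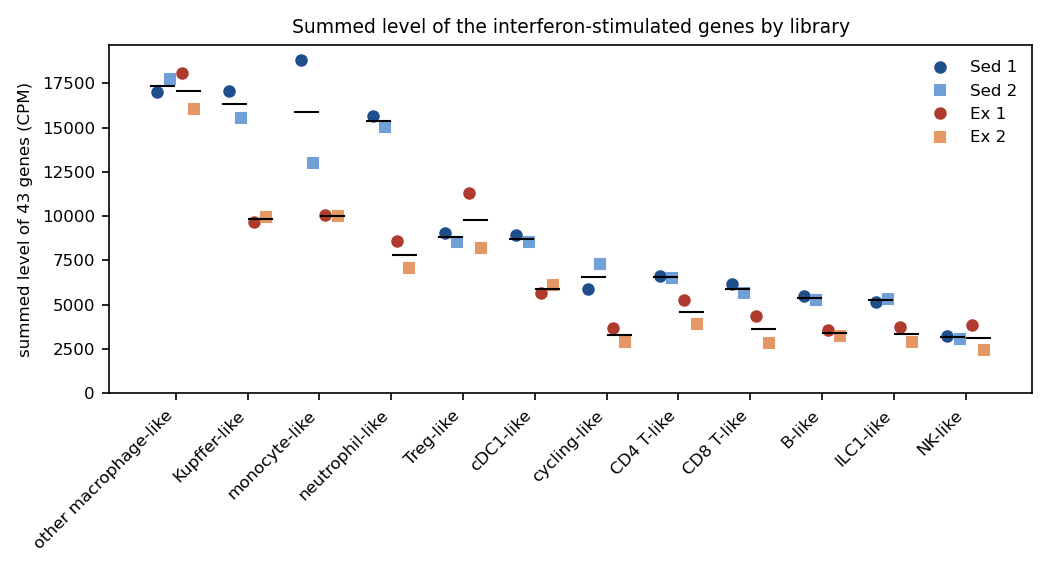
Summed level of the 43 members in CPM (vertical axis) in the 12 tested classes, 1 point per library with a line at each group mean. Both Ex points lie below both Sed points in Kupffer-like cells (9673 and 9964 against 17086 and 15557 CPM), and the groups overlap in other macrophage-like, Treg-like and NK-like cells.

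Summed over the 43 members, Kupffer-like cells held 17086 and 15557 CPM in Sed and 9673 and 9964 CPM in Ex. Neutrophil-like cells held 15669 and 15030 CPM in Sed and 8608 and 7055 CPM in Ex. Both classes thus started near the highest levels and were lower in both Ex libraries. Other macrophage-like cells held 16996 and 17759 CPM in Sed and 18105 and 16026 CPM in Ex, with overlapping groups. The sum is carried by a few genes with many UMIs, above all the membrane restriction factor Ifitm3, Ifi27l2a and Ly6e. The 11 most sharply induced members, among them the Ifit genes, Isg15, Rsad2 and Usp18, summed to 1901 and 1850 CPM in Sed and 731 and 812 CPM in Ex in Kupffer-like cells. In NK-like cells that sum was 359 and 288 CPM in Sed against 695 and 229 CPM in Ex, so Ex 1 alone was high.

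Among regulators, Irf7 had a negative change in all 12 classes. Irf7 is the transcription factor that amplifies the type I response. It was called lower in CD4 T-like, ILC1-like and cDC1-like cells. Xaf1, an apoptosis-linked factor induced by interferon, and the chaperone Rtp4 also had negative changes in 12 of 12 classes, as had Ifi213 and Ifi35. The Rtp4 value in cDC1-like cells was close to 0 (-0.03 ± 0.64), with the mean level there higher in Ex. Ifi27l2a, a small interferon-induced protein, was called lower in 6 classes and negative in 11, with Treg-like cells the exception (0.23). Dhx58, a helicase of the RNA sensor family, was negative in all 10 classes in which it could be tested. Dtx3l, an E3 ligase that works with Parp9, stood at the other end with negative changes in 6 of 12 classes. Between 48.4% and 51.6% of all genes tested had a negative change in a class.

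**Figure D3:**
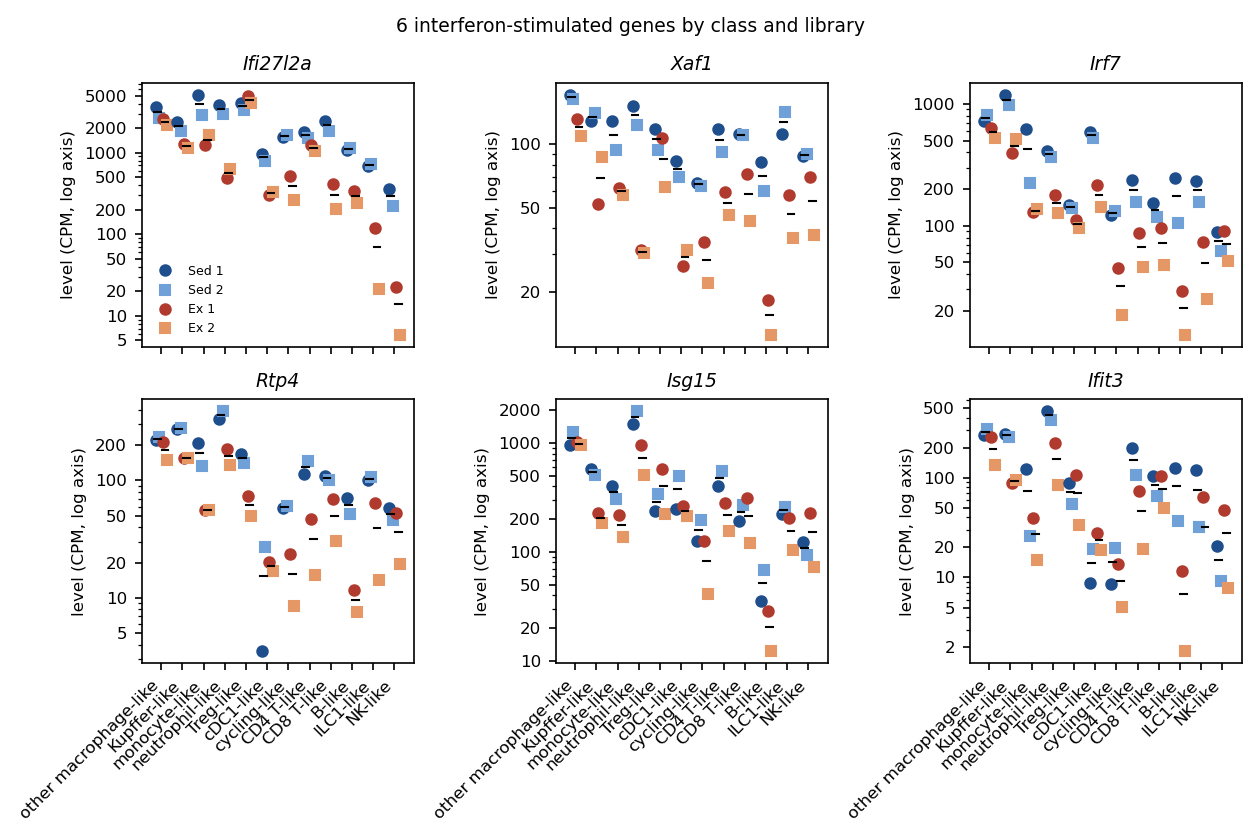
Levels of 6 members in CPM (log axis) in the 12 tested classes, 1 point per library with a line at each group mean. Ifi27l2a is lower in both Ex libraries in 11 classes, from 363 and 223 CPM to 22.3 and 5.88 CPM in NK-like cells, while Isg15 and Ifit3 overlap between groups in CD8 T-like cells. The level of 0 for Ifit3 in ILC1-like cells of Ex 2 cannot be drawn on a log axis.

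In neutrophil-like cells the antiviral genes Ifi27l2a, Xaf1 and Zbp1 fell, and no member was called higher by edgeR. These were 3 of 40 tested members, against 0.142% of all genes called lower and 0.0993% called higher. Ifi27l2a stood at 3821 and 2977 CPM in Sed and 487 and 636 CPM in Ex (-2.79 ± 0.30, adjusted p = 0.00206). Xaf1 stood at 152 and 123 CPM in Sed and 31.4 and 30.3 CPM in Ex (-2.32 ± 0.25, adjusted p = 0.00206). The drop was more than 4-fold for both, with a wide gap between the groups. Zbp1, a sensor of Z-form nucleic acid that can trigger cell death, stood at 329 and 317 CPM in Sed and 98.1 and 91.9 CPM in Ex (-1.94 ± 0.24, adjusted p = 0.00894). Without Ex 1 or Ex 2 none of the 3 passed (adjusted p = 0.0999 and 0.319 for Ifi27l2a, 0.0999 and 0.423 for Xaf1, and 0.117 and 0.704 for Zbp1). DESeq2 called 9 members lower (0.721% of all genes) and 1 higher. The higher one was Trim30c, at 0.859 and 6.71 CPM in Sed and 34.7 and 30.3 CPM in Ex, which edgeR did not call (3.19 ± 0.94, adjusted p = 0.329).

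Of the 4 Ifit genes, which bind viral RNA, 3 lay lower in both Ex libraries and Ifit2 lay higher, at 83.8 and 43.9 CPM in Sed and 174 and 95.1 CPM in Ex (0.94 ± 0.45, adjusted p = 0.481). Neither these nor Isg15 passed the test in the class as a whole. Isg15 had 1489 and 1955 CPM in Sed and 952 and 509 CPM in Ex (-1.38 ± 0.40, adjusted p = 0.234). Ifit3 had 462 and 384 CPM in Sed and 221 and 84.5 CPM in Ex (-1.58 ± 0.54, adjusted p = 0.354). The groups did not overlap for either gene, and the 2 Ex libraries lay far apart. Neutrophil-like cells fell into 3 clusters of unlike makeup in Sed and Ex. In the cluster rich in granule genes (425, 155, 75 and 44 cells in Sed 1, Sed 2, Ex 1 and Ex 2) 21 of 32 tested members were called lower, against 1.24% of its genes. Isg15 there stood at 447 and 484 CPM in Sed and 33.8 and 12.6 CPM in Ex (-4.15 ± 0.34, adjusted p = 3.08e-08). Rsad2, the enzyme that makes a chain-terminating nucleotide, stood at 310 and 252 CPM in Sed and 39.2 and 31.4 CPM in Ex (-2.94 ± 0.30, adjusted p = 1.38e-07). Both were lower in Ex by a wide margin, although the Ex sums rest on 23 and 32 UMIs. In a 2nd cluster (1377, 645, 90 and 26 cells) 10 of 34 were called lower (0.363% of its genes), with Isg15 at 1922 and 2072 CPM in Sed and 404 and 344 CPM in Ex. In the 3rd (416, 439, 393 and 285 cells), the only one of comparable size in all libraries, Ifi27l2a and Xaf1 were called lower (0.152% of its genes). Ifi27l2a had 4674 and 3615 CPM there in Sed and 758 and 720 CPM in Ex. Isg15 in that cluster had 2684 and 2874 CPM in Sed and 1611 and 712 CPM in Ex, a difference that did not pass (-1.24 ± 0.43, adjusted p = 0.628).

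In B-like cells Rtp4, Xaf1, Ifi27l2a and the torsin-family ATPase Tor3a fell, 4 of 41 tested members, against 0.132% of all genes. No member was called higher (0.0662% of all genes). DESeq2 called 9 members lower (0.402% of all genes). Rtp4 stood at 70.9 and 52.2 CPM in Sed and 11.7 and 7.56 CPM in Ex (-2.86 ± 0.28, adjusted p = 0.000942). Xaf1 stood at 82.0 and 59.7 CPM in Sed and 18.4 and 12.5 CPM in Ex (-2.37 ± 0.26). Both were lower in each Ex library by more than 4-fold in the mean. Ifi27l2a stood at 1079 and 1159 CPM in Sed and 341 and 244 CPM in Ex (-2.10 ± 0.21), and Tor3a at 63.7 and 52.7 CPM in Sed and 22.8 and 24.2 CPM in Ex (-1.47 ± 0.22, adjusted p = 0.0137). Neither gene overlapped between groups. Without Ex 1 the adjusted p of Rtp4 was 0.0867 and without Ex 2 it was 0.064, and the other 3 were lost as well.

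Other members of B-like cells lay lower still but varied between libraries. Irf7 had 247 and 105 CPM in Sed and 29.4 and 12.8 CPM in Ex (-3.23 ± 0.69, adjusted p = 0.238). Ifit3 had 126 and 37.1 CPM in Sed and 11.7 and 1.82 CPM in Ex (-3.85 ± 1.32, adjusted p = 0.409). The 2 libraries of each group differed by more than 2-fold, so the size of these changes is poorly known. Isg15 had 35.6 and 68.3 CPM in Sed and 28.6 and 12.2 CPM in Ex, and the restriction factor tetherin (Bst2) had 137 and 264 CPM in Sed and 76.4 and 65.4 CPM in Ex. Ifitm3 had 70.9 and 158 CPM in Sed and 59.5 and 43.8 CPM in Ex. None of these 3 overlapped between groups or passed the test. Neutrophil markers in B-like cells summed to 0.124% and 0.0763% of their level in neutrophils in Sed and 0.0411% and 0.0258% in Ex. That share of neutrophil RNA would give 4.74 and 2.27 CPM of Ifi27l2a in the Sed libraries, and the part of such RNA in the result was not tested. Within the B-like cluster of 353, 379, 800 and 1094 cells, 19 of 38 tested members were called lower (1.66% of its genes). In the other, of 988, 413, 214 and 97 cells, 30 of 31 were negative and 0 were called (0.0163% of its genes). Most B-like cells of Sed 1 lay in the latter cluster and most of the Ex libraries in the former, so the class differed in makeup between groups.

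In monocyte-like cells 7 of 43 tested members fell, against 0.782% of all genes called lower and 1.33% called higher. They were Bst2, Zbp1, Rtp4, Phf11b, Ifi35, Xaf1 and Trim30b. Bst2, which tethers budding virus to the membrane, stood at 494 and 326 CPM in Sed and 186 and 173 CPM in Ex (-1.20 ± 0.22, adjusted p = 0.0303). Zbp1 stood at 392 and 276 CPM in Sed and 168 and 165 CPM in Ex (-1.02 ± 0.20), and Rtp4 at 209 and 132 CPM in Sed and 56.4 and 55.9 CPM in Ex (-1.61 ± 0.25, adjusted p = 0.0167). The 2 Ex libraries were nearly alike in each case, and Sed 1 was the highest library. Phf11b had 146 and 98.6 CPM in Sed and 52.4 and 52.6 CPM in Ex, and Ifi35, a binding partner of Nmi, had 107 and 113 CPM in Sed and 66.6 and 59.6 CPM in Ex. Xaf1 had 128 and 93.9 CPM in Sed and 62.2 and 57.3 CPM in Ex (adjusted p = 0.0451), and Trim30b, of the tripartite motif family, had 54.5 and 44.8 CPM in Sed and 19.4 and 25.2 CPM in Ex (adjusted p = 0.019). None of the 7 overlapped between groups. DESeq2 called 10 members lower (1.17% of all genes).

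The 4 Ifit genes had negative changes in this class and overlapped between groups. Ifit3 had 122 and 26.0 CPM in Sed and 39.9 and 14.9 CPM in Ex (adjusted p = 0.709), with Sed 2 below Ex 1. Irf7 had 625 and 226 CPM in Sed and 129 and 137 CPM in Ex (-1.70 ± 0.69, adjusted p = 0.405), Isg15 had 405 and 307 CPM in Sed and 217 and 136 CPM in Ex (adjusted p = 0.113), and Ifi27l2a had 5108 and 2923 CPM in Sed and 1253 and 1628 CPM in Ex (adjusted p = 0.146). Ifitm3 overlapped, at 5105 and 3590 CPM in Sed and 3946 and 3814 CPM in Ex. Neutrophil markers in this class summed to 13255 and 5846 CPM in Sed and 665 and 2145 CPM in Ex. At that share neutrophil RNA would give 181 and 70.8 CPM of Ifi27l2a in Sed, and the part of such RNA in the result was not tested. Clusters made up the class unevenly: 1 held 1040 and 920 cells in Sed and 55 and 45 in Ex, with 0 of 43 members called (0% of its genes lower) and all 43 negative. The other held 88, 432, 432 and 219 cells, with 9 called lower (1.28% of its genes), among them Rtp4 and Bst2. Without Ex 1 or Ex 2 none of the 7 passed, with adjusted p between 0.247 and 0.532. All 7 were also lost when the interferon genes took part in the clustering (adjusted p from 0.327 to 0.517), and 6, all but Trim30b, with doublets kept (adjusted p from 0.103 to 0.153). With interferon genes in the clustering the class held only 1052, 1021, 61 and 48 cells, against 1128, 1352, 487 and 264 before. All 43 members were negative there, with a median of -1.10. The part of the smaller Ex sums in the lost calls was not tested.

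cDC1-like cells, dendritic cells that take up dead cells and cross-present antigen, had lower Irf7, Ifi27l2a and Ifi44, 3 of 39 tested members (0.261% of all genes called lower), and 33 of the 39 had a negative change (50.3% of all genes). Irf7 stood at 590 and 528 CPM in Sed and 217 and 143 CPM in Ex (-1.80 ± 0.23). Ifi27l2a stood at 977 and 784 CPM in Sed and 305 and 329 CPM in Ex (-1.66 ± 0.20). Ifi44, a cytoplasmic protein of unsettled function, stood at 93.3 and 130 CPM in Sed and 12.5 and 23.2 CPM in Ex (-2.87 ± 0.35). Each had an adjusted p of 0.00732 and no overlap between groups, and each missed the threshold without Ex 1 (0.0917 to 0.132) or Ex 2 (0.0503 to 0.153). The class rests on 36 to 127 cells per library. cDC2-like and pDC-like cells were too few to test.

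In ILC1-like cells, tissue-resident innate lymphocytes, Ifi27l2a, Irf7 and Xaf1 fell, 3 of 27 tested members (0.267% of all genes called lower). Ifi27l2a stood at 680 and 722 CPM in Sed and 119 and 21.5 CPM in Ex (-3.42 ± 0.50, adjusted p = 0.0396). Irf7 stood at 234 and 156 CPM in Sed and 73.7 and 25.1 CPM in Ex (-2.06 ± 0.39), and Xaf1 at 112 and 142 CPM in Sed and 57.6 and 35.8 CPM in Ex (-1.57 ± 0.33). Ex 2 was the lowest library for all 3 genes. Without Ex 2 Irf7 and Xaf1 did not pass (adjusted p = 0.058 and 0.283), without Sed 2 Xaf1 did not (0.0518), neither did with stricter cells (0.364 and 0.0775) or at clustering resolution 2 (0.106 and 0.116), with doublets kept Ifi27l2a did not (0.491), and DESeq2 gave no adjusted p for the 3 genes.

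In NK-like cells a single member fell, Ifi27l2a (1 of 35 tested, 0.323% of all genes), and none rose (0.138% of all genes). DESeq2 also called 1 lower (0.515% of all genes). It stood at 363 and 223 CPM in Sed and 22.3 and 5.88 CPM in Ex (-4.39 ± 0.43, adjusted p = 0.000153). This was the steepest call of any member in a class, and it held in each of the 13 alternatives run. The Ex values rest on 24 UMIs. The class differed in makeup: the cluster led by Klra4 and Klra8 held 52 of 149 and 77 of 94 cells in Sed and 229 of 234 and 123 of 123 in Ex, and a cluster led by Gzmd and Gzmc held 97 and 17 cells in Sed and 5 and 0 in Ex. Neutrophil RNA at the share seen in these cells would give 1.97 and 1.95 CPM of Ifi27l2a in Sed. The part of either in the result was not tested. Common response genes that were chosen after their values were seen overlapped between groups. Isg15 had 124 and 92.9 CPM in Sed against 230 and 72.5 CPM in Ex, and Slfn5, a schlafen protein, had 23.3 and 24.8 CPM in Sed against 81.7 and 15.7 CPM in Ex. Ex 1 was the highest library and Ex 2 the lowest for both.

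T cells did not move in 1 direction. In CD4 T-like cells Isg15, Irf7 and Rtp4 fell, 3 of 34 tested members (0.436% of all genes called lower, 0.331% higher). Isg15 stood at 404 and 557 CPM in Sed and 283 and 157 CPM in Ex (-1.20 ± 0.26, adjusted p = 0.0246). Irf7 stood at 237 and 157 CPM in Sed and 87.7 and 46.1 CPM in Ex (-1.62 ± 0.31, adjusted p = 0.0108), and Rtp4 at 113 and 147 CPM in Sed and 47.4 and 15.8 CPM in Ex (-2.07 ± 0.39, adjusted p = 0.011). DESeq2 called 2 lower (0.511% of all genes), and 28 of the 34 had a negative change (49.7% of all genes). Groups did not overlap for the 3 genes, and without Ex 2 none passed (adjusted p = 0.965, 0.168 and 0.0853). Isg15 and Rtp4 were also lost with doublets kept (0.172 and 0.0623), Isg15 under DESeq2 (0.0664) and Rtp4 at resolution 2 (0.0547). The main CD4 T-like cluster held 49 of 59 and 67 of 79 cells in Sed and 164 of 308 and 128 of 194 in Ex. In Treg-like cells no member of 34 was called by edgeR or by DESeq2, where edgeR called 0.409% of all genes lower and 0.25% higher. An unadjusted edgeR p under 0.05 was reached by 2 of the 34, and the share of all genes at that limit is not given for this class. A negative change was seen in 15 of the 34 (49.7% of all genes). Bst2 there stood at 228 and 350 CPM in Sed and 525 and 368 CPM in Ex (0.64 ± 0.26, adjusted p = 0.427), and Ifi27l2a at 4120 and 3333 CPM in Sed and 4928 and 4036 CPM in Ex. Treg-like cells were the only tested class in which Ifi27l2a was not lower, and the groups overlapped.

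CD8 T-like cells had members called in both directions. Slfn5, Trim30c and Usp18 rose while Ifi27l2a and Xaf1 fell, 5 of 40 tested members in a class where 7.43% of all genes were called lower and 6.34% higher. The members' share of calls was thus near the background of the class. DESeq2 called 1 lower (4.11% of all genes), and 25 of the 40 had a negative change (49.1% of all genes). Slfn5 stood at 27.8 and 24.1 CPM in Sed and 119 and 58.7 CPM in Ex (1.89 ± 0.31, adjusted p = 0.000839). Usp18, the protease that removes Isg15 from proteins and dampens the receptor, stood at 29.96 and 27.99 CPM in Sed and 72.7 and 36.3 CPM in Ex (1.03 ± 0.30, adjusted p = 0.029). Trim30c rose from 5.71 and 4.39 CPM in Sed to 18.03 and 16.01 CPM in Ex (1.86 ± 0.40, adjusted p = 0.0039), on 16 UMIs in Sed. All 3 were higher in both Ex libraries. Ifi27l2a stood at 2460 and 1870 CPM in Sed and 409 and 202 CPM in Ex (-2.74 ± 0.33, adjusted p = 0.000783), and Xaf1 at 111 and 110 CPM in Sed and 72.4 and 43.2 CPM in Ex (-0.83 ± 0.25, adjusted p = 0.03).

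Isg15, Ifit3 and Bst2 overlapped between groups in CD8 T-like cells. Isg15 had 194 and 268 CPM in Sed and 310 and 122 CPM in Ex, Ifit3 had 104 and 65.3 CPM in Sed and 104 and 49.6 CPM in Ex, and Bst2 had 290 and 239 CPM in Sed and 350 and 203 CPM in Ex. In all 3 genes Ex 2 was the lowest library. Irf7 had 153 and 117 CPM in Sed and 95.3 and 48.0 CPM in Ex (adjusted p = 0.0807), and Ifitm3 had 82.0 and 135 CPM in Sed and 65.7 and 81.6 CPM in Ex. For Irf7 and Ifitm3 both Ex libraries lay below both Sed libraries, and neither gene was called. The class was made of different clusters in the 2 groups. A cluster led by Gzmk, an effector granzyme, held 218 and 402 cells in Sed and 6 and 8 in Ex, and another held 43 and 42 cells in Sed and 389 and 190 in Ex. Within the latter no member was called higher, with Slfn5 at 66.3 and 42.0 CPM in Sed and 122 and 68.0 CPM in Ex (0.86 ± 0.39, adjusted p = 0.601). Ifi27l2a was called lower there too, at 1184 and 746 CPM in Sed and 317 and 180 CPM in Ex (-1.91 ± 0.26, adjusted p = 3.9e-05; 0.297% of its genes were called lower). With doublets kept, none of the 3 higher calls remained (adjusted p = 0.229 for Slfn5, 0.301 for Trim30c and 0.0959 for Usp18). The class then held 547, 584, 540 and 323 cells, against 294, 538, 552 and 320 before. The part of the added Sed 1 cells in these losses was not tested. Trim30c and Usp18 were also lost without Sed 2 (0.0757 and 0.196) and under DESeq2 (0.0542 and 0.118), Usp18 without Ex 1 (0.358), Slfn5 with interferon genes in the clustering (0.0612), Ifi27l2a without Sed 2 (0.101), and Xaf1 under 8 of 13 alternatives, among them without Sed 1 (0.115), Sed 2 (0.113) and Ex 2 (0.139).

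In Kupffer-like cells 42 of 43 members had a negative change (51.2% of all genes), and none passed the threshold in edgeR, where 0.113% of all genes were called lower and 0.295% higher. An unadjusted p under 0.05 was reached by 27 members, against 9.2% of all genes. DESeq2 called 5 lower, Isg15, Irf7, Phf11d, Rsad2 and Ifit3, against 0.706% of all genes. Ifit3, Phf11d and Rsad2 had the smallest p. Ifit3 had 277 and 255 CPM in Sed and 89.2 and 94.9 CPM in Ex (-1.45 ± 0.29, adjusted p = 0.0658). Phf11d, of the PHD finger family, had 166 and 104 CPM in Sed and 32.4 and 45.4 CPM in Ex (-1.75 ± 0.37, adjusted p = 0.0752), and Rsad2 had 208 and 219 CPM in Sed and 53.5 and 99.0 CPM in Ex (-1.49 ± 0.32, adjusted p = 0.0799). Both Ex libraries lay well below both Sed libraries for all 3.

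Isg15 in Kupffer-like cells had 576 and 506 CPM in Sed and 229 and 186 CPM in Ex (-1.28 ± 0.32, adjusted p = 0.144), and Irf7 had 1181 and 984 CPM in Sed and 397 and 511 CPM in Ex (-1.19 ± 0.33, adjusted p = 0.208). Ifi204, a DNA sensor of the PYHIN family, had 673 and 553 CPM in Sed and 256 and 264 CPM in Ex, and Ifit2 had 209 and 253 CPM in Sed and 86.0 and 115 CPM in Ex. These 4 genes did not overlap between groups. Ifi27l2a (2401 and 1856 against 1272 and 1130 CPM), Bst2 (884 and 992 against 568 and 565 CPM) and Ifitm3 (4036 and 2851 against 2321 and 1876 CPM) lay closer, at changes of -0.74, -0.64 and -0.63. Ly6e, a membrane protein with a high resting level, barely differed at 2771 and 2650 CPM in Sed and 2259 and 2338 CPM in Ex (-0.16 ± 0.33). By role, the median change was -1.30 for the 4 Ifit genes, -1.28 for the 3 genes of Isg15 conjugation, -1.08 for the 4 PYHIN genes, -0.70 for the 3 RNA sensors and -0.64 for the 9 restriction factors. It was -0.77 for the 2 schlafen genes, -0.76 for the 3 Phf11 genes, -0.79 for 6 members of other roles and -0.23 for the 9 regulators. Ddx58 (RIG-I), Parp9 and Dtx3l were near 0, at -0.04, -0.07 and -0.07. Isg20, an RNA exonuclease, was the only member with a positive change, and its 34.1 CPM in Ex 1 stood alone against 12.4 and 13.1 CPM in Sed and 12.4 CPM in Ex 2.

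The Kupffer-like class had few UMIs in Ex, with 428 and 104 cells, and erythroid markers summed to 16351 CPM in Ex 1 against 42.4, 437 and 16.5 CPM in Sed 1, Sed 2 and Ex 2. The summed member level was 9673 CPM in Ex 1 and 9964 CPM in Ex 2, and the part of erythroid RNA in the result was not tested. Kupffer markers summed to 10585 and 19363 CPM in Sed and 12815 and 16934 CPM in Ex. The 2 clusters of the class pointed the same way. In the cluster with few UMIs per cell (231, 591, 401 and 79 cells), fitted by itself after the data were seen, Ifit3, Irf7, Ifi204 and Phf11d were called lower (0.277% of its genes), with Ifit3 at 316 and 278 CPM in Sed and 96.6 and 85.9 CPM in Ex (adjusted p = 0.0094). In the other (79, 431, 27 and 25 cells) no member was called (0% of its genes), with 37 of 42 negative and a median of -1.03. In the class as a whole the median member change ranged from -0.96 (without Ex 2) to -0.75 (without Ex 1) with a library left out.

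Other macrophage-like cells were named from a marker list that holds Ms4a7, Cx3cr1, Trem2, Spp1 and C3ar1. They had 0 members called by edgeR or by DESeq2, where edgeR called 0.0418% of all genes lower and 0.0105% higher. An unadjusted edgeR p under 0.05 was reached by 2 members, and the share of all genes at that limit is not given for this class. Isg15 stood at 963 and 1263 CPM in Sed and 1029 and 952 CPM in Ex. Ifitm3 stood at 3959 and 3439 CPM in Sed and 4586 and 4067 CPM in Ex, and Ifi27l2a at 3678 and 2651 CPM in Sed and 2596 and 2203 CPM in Ex. Neither the high nor the low members formed a pattern by group that passed the test. Ifit3 had 271 and 311 CPM in Sed and 254 and 135 CPM in Ex, Irf7 had 727 and 804 CPM in Sed and 639 and 525 CPM in Ex, and Bst2 had 814 and 1106 CPM in Sed and 800 and 696 CPM in Ex. Dtx3l had the smallest p, at 68.9 and 117 CPM in Sed and 134 and 152 CPM in Ex (0.66 ± 0.26, adjusted p = 0.335). The class held 2 unlike clusters. The larger, led by Arg1, Cxcl9, Ccl12 and Spp1, held 220, 196, 749 and 306 cells. There 17 of 43 members were negative with a median of 0.12 and 0 calls (1.11% of its genes lower). In that led by Cd207 and Cx3cr1 (29, 185, 135 and 29 cells) 42 of 43 were negative with a median of -0.82 and 0 calls (0% of its genes). The difference between these clusters was not tested. In the class as a whole the median member change was 0.16 without Sed 2 and -0.05 without Sed 1.

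Cycling cells, a mixture of dividing cells of several types, had 42 of 42 tested members negative (51.4% of all genes) and 0 called by edgeR, where 0.0637% of all genes were called lower and 0.0319% higher. DESeq2 called 5 members lower (0.377% of all genes). The summed level was 5871 and 7295 CPM in Sed and 3701 and 2900 CPM in Ex. Neutrophil markers in this class reached 7.05% to 21.5% of their level in neutrophils, and their part in the result was not tested.

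Whether classes differed in their response was tested with a class by group term, with the library as a term as well. The change in Kupffer-like cells differed from that in CD8 T-like cells for 12 of 43 members, where 5.61% of all genes passed. It was more negative in Kupffer-like cells for Ifit1, Ifit2, Ifit3, Ifit3b, Isg15, Usp18, Slfn5, Slfn8, Trim30c and Tor3a. Usp18 differed by -2.57 ± 0.43, Slfn5 by -2.44 ± 0.33, Ifit3 by -1.50 ± 0.33 and Isg15 by -1.27 ± 0.32 (adjusted p = 0.00594 for Isg15). Ifi27l2a went the other way, with a difference of 2.02 ± 0.34, since it fell further in CD8 T-like cells, and so did Isg20 (1.60 ± 0.48). Of the 12, Ifi27l2a, Slfn5, Trim30c and Usp18 were called in CD8 T-like cells fitted alone, and none was called in Kupffer-like cells fitted alone. Without Ex 1 the count was 2 and without Sed 2 it was 6.

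**Figure D4:**
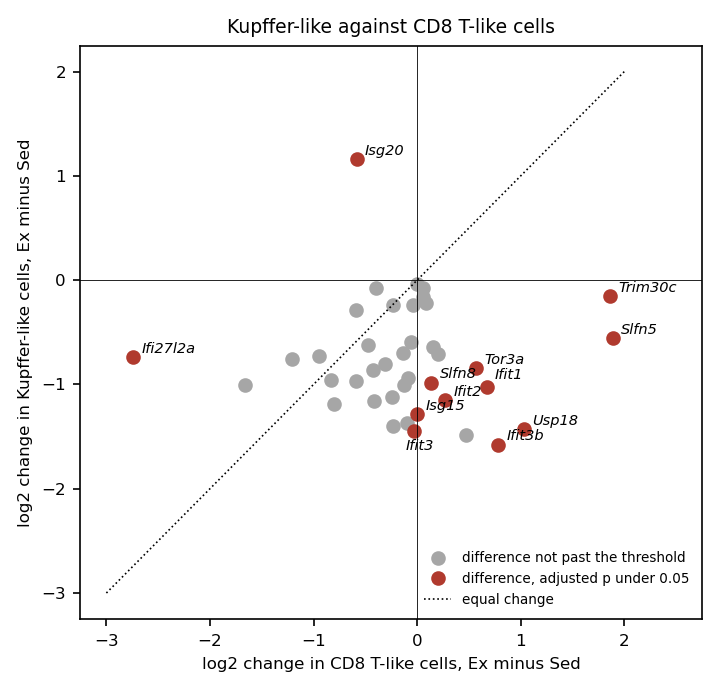
Log2 change (Ex minus Sed) in CD8 T-like cells (horizontal) against that in Kupffer-like cells (vertical) for the 40 members tested in both classes. Red points mark the 12 members whose changes differed at an adjusted p under 0.05 and the dotted line marks equal change. Slfn5 and Trim30c lie far to the right and Ifi27l2a far to the left.

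Against monocyte-like cells, 1 of 43 members differed, Isg20 (2.24 ± 0.50, adjusted p = 0.0399), where 0.805% of all genes passed. The Ifit3 difference was -0.45 ± 1.28 and that of Isg15 -0.32 ± 0.31. Against other macrophage-like cells no member differed in edgeR (0.376% of all genes passed), although the median difference was -0.90. Isg15 differed by -1.25 ± 0.35 (adjusted p = 0.143), Ifit3 by -0.98 ± 0.34 and Irf7 by -0.90 ± 0.34. All 3 were more negative in Kupffer-like cells and none passed the threshold. A difference between the 2 macrophage classes was therefore not shown at this depth.

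A cell was counted as in a high interferon state when, thinned to 1000 UMIs, it held at least 3 UMIs from at least 2 of the 11 sharply induced members. Thinning sets all cells to 1 depth, and shallower cells were left out. Of all cells, 25.7% and 18.2% were high in Sed and 11.2% and 4.53% in Ex (unthinned 59.7%, 50.0%, 28.2% and 16.8%). Of 22073 thinned cells 3602 were high. A further 1935 lay just under the limit with 2 UMIs, and 1078 held exactly 3, so the state is a range and not a type.

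Neutrophil-like cells held the highest share. It was 57.3% (95% interval 55.2 to 59.4) and 53.2% (50.2 to 56.1) in Sed and 20.1% (16.8 to 23.7) and 13.5% (10.1 to 17.6) in Ex, a mean of 55.2% ± 2.92 against 16.8% ± 4.62 (SD, n = 2). Intervals are exact binomial ones and cover counting error only. The drop was present in each neutrophil cluster. In the cluster of comparable size in all libraries the share was 66.7% and 64.4% in Sed and 25.6% and 15% in Ex. In the granule-rich cluster it was 21.1% and 18.3% in Sed and 1.33% in Ex 1, with 0 of 44 cells in Ex 2, which allows a share of up to 6.82% as 3 counts of the total and 8.04% as the exact upper limit. Within each cluster both Ex shares lay below both Sed shares.

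**Figure D5:**
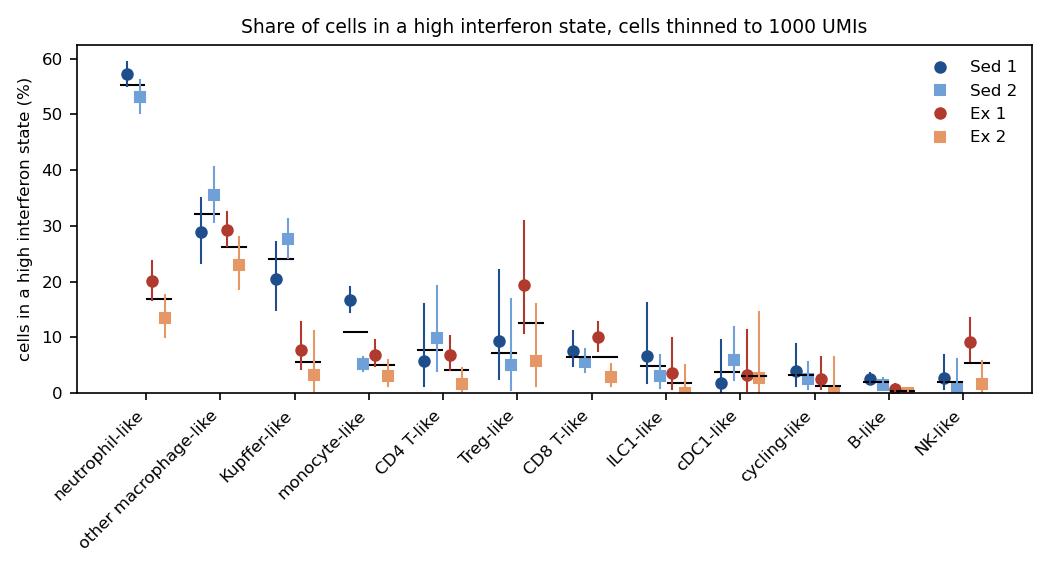
Percent of cells in a high interferon state (vertical axis) in the 12 tested classes, thinned to 1000 UMIs. Points are libraries with exact 95% binomial intervals and lines mark group means. Neutrophil-like cells drop from 57.3% and 53.2% to 20.1% and 13.5%, while the groups overlap in other macrophage-like cells.

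In Kupffer-like cells the share was 20.6% (14.9 to 27.2) and 27.6% (24.3 to 31.2) in Sed and 7.82% (4.34 to 12.8) and 3.23% (0.393 to 11.2) in Ex, with 2 high cells of 62 in Ex 2. The mean was 24.1% ± 5.00 in Sed and 5.52% ± 3.25 in Ex. Groups did not overlap, and the intervals of Ex lay below those of Sed. Thinning left out 130 and 345 cells in Sed and 249 and 42 in Ex of this shallow class, and the unthinned shares were 41.6% and 54.5% against 11.9% and 18.3%. Other macrophage-like cells kept a high share, 28.9% and 35.5% in Sed and 29.3% and 23.1% in Ex, with overlap. Within their Cd207 and Cx3cr1 cluster it was 17.2% and 43.8% in Sed and 7.41% and 10.3% in Ex.

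Lymphocytes seldom reached the state. CD8 T-like cells held 7.56% and 5.59% in Sed and 10.0% and 2.81% in Ex, Treg-like cells 9.30% and 5.00% in Sed and 19.4% and 5.77% in Ex, and NK-like cells 2.72% and 1.14% in Sed and 9.09% and 1.63% in Ex. In these 3 classes Ex 1 was the highest library, and Ex 2 lay within or below the range of Sed. B-like cells held 2.59% and 1.46% in Sed and 0.802% in Ex 1, with 0 of 1188 cells in Ex 2, which allows up to 0.253% as 3 counts of the total and 0.31% as the exact upper limit. The B-like share gives the level in a class with few of these UMIs, at a median of 1646 to 2725 UMIs per cell over the libraries against 864 to 1769 in Kupffer-like cells. Monocyte-like cells held 16.7% and 5.15% in Sed and 6.92% and 3.04% in Ex, where Sed 1 alone was high. The high cells changed in makeup with the classes: neutrophil-like cells were 73.7% and 51.6% of them in Sed and 18.4% and 26.7% in Ex, and other macrophage-like cells 4.30% and 11.7% in Sed and 43.4% and 43.8% in Ex. Of all thinned cells, neutrophil-like cells were 33.0% and 17.6% in Sed and 10.3% and 8.94% in Ex.

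The rest of the pathway was read from fixed lists. Of the 8 listed genes of the OAS family, only some of which make the activator of RNase L, 7 were in the matrix. Oas3, Oasl2, Oas2, Oas1a and Oas1g fell in monocyte-like cells (5 of 7, where 0.782% of all genes fell), Oasl1 and Oas2 in B-like cells (2 of 5, where 0.132% fell) and Oas3 in neutrophil-like cells (1 of 7, where 0.142% fell). Oasl1 fell in Kupffer-like cells (1 of 6, where 0.113% fell). It had 209 and 208 CPM in Sed and 29.2 and 74.2 CPM in Ex (-2.09 ± 0.37, adjusted p = 0.037). Oasl2 rose in CD8 T-like cells (1 of 6, where 6.34% of all genes rose), from 5.71 and 9.88 CPM to 23.5 and 13.3 CPM (adjusted p = 0.027). Transcripts of type I ligands were almost unseen: Ifnb1 had 1 and 4 UMIs in Sed and 9 and 7 in Ex over the whole libraries, Ifna2 had 3 in Ex 1 and Ifnk 1 in Ex 2, and the other 7 type I and III genes listed had 0. The receptor genes Ifnar1 and Ifnar2 were tested in all 12 classes and called in none. Of the 11 genes of nucleic acid sensing, 2 (ILC1-like) to 11 (monocyte-like and other macrophage-like) could be tested in a class. None was called where it was tested. In Kupffer-like cells Ifnar1 had 53.8 and 54.6 CPM in Sed and 35.7 and 49.5 CPM in Ex, and Stat2, a factor downstream of it, had 127 and 138 CPM in Sed and 56.8 and 66.0 CPM in Ex (adjusted p = 0.25).

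Of 20 listed genes that interferon gamma induces, several rose in classes where members fell. In neutrophil-like cells 4 of 15 tested rose (0.0993% of all genes) and none fell: the guanylate-binding proteins Gbp3 and Gbp5 and the chemokines Cxcl9 and Cxcl10. Cxcl10, which draws T cells, stood at 18.9 and 35.9 CPM in Sed and 480 and 333 CPM in Ex (3.75 ± 0.44, adjusted p = 0.036). In monocyte-like cells 5 of 17 rose (1.33% of all genes) and none fell: Cxcl10, Gbp2, Gbp5, Irf1 and Ciita, the master regulator of MHC class II. Cxcl10 stood there at 23.9 and 28.9 CPM in Sed and 207 and 229 CPM in Ex (3.04 ± 0.18). Both Ex libraries were several times above both Sed libraries in each class. Cxcl9 was called higher in B-like cells as well (1 of 15 tested, where 0.0662% of all genes rose). Cxcl9 and Cxcl10 were also leading genes of the larger other macrophage-like cluster, which held 220 and 196 cells in Sed and 749 and 306 in Ex. The part of free RNA from such cells in the rises of other classes was not tested. In CD8 T-like cells Gbp2, Igtp, Iigp1, Tgtp2 and Irf1 rose (5 of 17, where 6.34% of all genes rose) and Irf8 fell (1 of 17, where 7.43% fell). In Kupffer-like cells Cxcl9 alone rose (1 of 15, where 0.295% of all genes rose), while the list's median was -0.20 there and 0.80 in other macrophage-like cells, where none was called. Ifng itself had 955 and 959 UMIs in Sed and 1299 and 789 in Ex over all cells, and in CD8 T-like cells it fell from 213 and 239 CPM to 67.5 and 45.4 CPM (-1.89 ± 0.23).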

How the data were processed

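Hepatic CD45-enriched cells were profiled by 10x Genomics 3′ single-cell RNA sequencing. The authors deposited 1 matrix of UMI counts (whole numbers, not normalized), made with Cell Ranger and mm10 per the submitters' processing notes. Barcode suffixes were read as the order of aggregation of the 4 libraries. 22615 columns without a barcode were not used. Barcodes under 200 genes or over 10% mitochondrial UMIs were dropped. Scrublet's highest scores were removed as doublets at 0.8% per 1000 cells, since its automatic limit marked 0.0165% of Ex 1 and 0.0236% of Ex 2. Cells were clustered with scanpy 1.11.5 (2000 variable genes without the interferon lists, 30 components, Leiden resolution 1). Counts were summed per library and class and tested with edgeR 4.0.16 (TMM, filterByExpr, robust quasi-likelihood fit, Benjamini-Hochberg over all genes), with DESeq2 1.42.0 as an alternative. On simulated Kupffer-like sums, 11 of 100 genes changed 2-fold and 74 of 100 changed 4-fold were called. Depth per library is given in the report, and binomial intervals and floors of 3 counts cover counting error only. The text gives library values for all members called in a class and for Ifit3, Isg15, Irf7, Bst2, Ifi27l2a and Ifitm3 in the classes compared. Other members given with values (such as Phf11d, Rsad2 and Isg20 in Kupffer-like cells, Dtx3l in other macrophage-like cells and Slfn5 in NK-like cells) were chosen after their values were seen. Members and lists were chosen with earlier results of these data known. Alternatives were another normalization, no filter, stricter cells, doublets kept, another resolution, interferon genes used to cluster, thinned sums, a replicate block and each library left out. Mx2 was not analysed here. The result for 1 signalling gene is not reported here.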

Additional observations from a re-analysis of the deposited data

Results flagged for a closer look

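Changes that differed between classes by a test of the difference itself are listed here with their size, as Kupffer-like minus CD8 T-like on the log2 scale. Members of the Ifit group were more negative in Kupffer-like cells, by -1.86 (Ifit1), -1.49 (Ifit2), -1.50 (Ifit3) and -2.46 (Ifit3b). So were Isg15 (-1.27) and its protease Usp18 (-2.57), the schlafen genes Slfn5 (-2.44) and Slfn8 (-1.18), Trim30c (-2.09) and Tor3a (-1.49). Ifi27l2a (2.02) was less negative in Kupffer-like than in CD8 T-like cells, and Isg20 (1.60) had a positive change in Kupffer-like and a negative one in CD8 T-like cells. Isg20 also differed between Kupffer-like and monocyte-like cells (2.24), on 24 UMIs in the Ex libraries of Kupffer-like cells, and lost that call without Ex 1 and without Ex 2. CD8 T-like cells came from different clusters in Sed and Ex, and the part of this in the differences was not tested.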

How the results depend on the processing

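In Kupffer-like cells 0 members were called lower, against 5 with DESeq2, 8 without the filter on low counts and 1 at clustering resolution 2. In the few-UMI cluster alone (chosen after seeing the data) 4 were called lower. In the other 11 tested classes there were 26 lower calls, against 41 with DESeq2, 102 without the filter, 59 at resolution 2, and 3 (without Ex 2) to 95 (without Sed 2) with a library left out, 72 without Sed 1 and 31 without Ex 1. The 3 higher calls became 7 without the filter, 5 with stricter cells and 0 with doublets kept. In all, the higher count shifted under at least 7 alternatives. Without Ex 2 the median member change was 0.55 in NK-like, 0.41 in Treg-like and 0.08 in CD8 T-like cells. Without Ex 1 it was -0.67, -0.35 and -0.56. The direction in these classes thus depended on which Ex library was kept. With the replicate block there were 69 lower and 8 higher calls in these classes and 0 in Kupffer-like cells, but same-numbered libraries did not deviate together (correlations of -0.08 to 0.18), so the numbers do not pair the samples. Of the 29 calls, 28 were shared with the block, 22 with DESeq2, 11 without Ex 1 and 6 without Ex 2. With doublets kept, where cDC1-like and Treg-like cells were not tested, 13 of the 29 were shared, and with interferon genes used to cluster 20 were. Over the 371 values of called genes under the alternatives, 286 kept their call, 85 lost it and none turned direction. The Kupffer-like and CD8 T-like difference, 12 members, ranged from 2 (without Ex 1) to 15 with a library left out. That against monocyte-like cells, 1 member, was 3 without the filter and 0 to 7 with a library left out. That against other macrophage-like cells, 0 members, was 2 with DESeq2 size factors, 14 without the filter and 0 to 6 with a library left out. For most of these alternatives the share of all genes called is not given, so the counts have no background to be set against. The cause of these shifts was not tested.

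The monocyte-like high share (log2 of Ex over Sed -1.14) turned to 0.42 when at least 5 UMIs were asked for, and that of CD8 T-like cells (-0.04), whose groups overlap, to 1.16 at 5 UMIs and 1.17 at 2000 UMIs per cell, and it ranged from -1.22 to 0.61 with a library left out. The log2 ratios of Kupffer-like, neutrophil-like, B-like and other macrophage-like cells stayed negative under the alternatives run, while the shares themselves moved with the limit. Without the 6 most abundant members the log2 change of the summed level went from -0.73 to -0.95 in Kupffer-like, -0.97 to -0.53 in neutrophil-like and -0.67 to -0.86 in B-like cells. With stricter cells it was -0.58 in Kupffer-like and -0.53 in B-like cells. The median member change crossed 0 in CD8 T-like (-0.56 without Ex 1 to 0.17 with stricter cells), NK-like (-0.67 to 0.55), Treg-like (-0.35 to 0.41) and other macrophage-like cells (-0.05 to 0.17). Treg-like cells were not tested with doublets kept or stricter cells, nor cDC1-like cells with doublets kept. In B-like cells no high share ratio could be had without Ex 1, since Ex 2 held 0 high cells. With 2 libraries per group, a left-out library leaves 1 that is assumed to vary like the others. The 104 Kupffer-like cells of Ex 2 set the depth of that class.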

Other observations

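cDC2-like cells were too few in at least 1 library to test, and their members did not move together. Ifit1 had 0 and 53.5 CPM in Sed and 90.1 and 129 CPM in Ex, and Rsad2 had 23.2 and 47.2 CPM in Sed and 110 and 161 CPM in Ex, both higher in the Ex libraries. Ifi213, a PYHIN gene, had 128 and 86.0 CPM in Sed and 36.8 and 30.5 CPM in Ex, and Ifi44 had 34.8 and 53.5 CPM in Sed and 9.69 and 21.8 CPM in Ex, both lower in the Ex libraries. pDC-like cells, the class known for making interferon alpha, held a summed member level of 15210 and 14714 CPM in Sed and 11959 and 9111 CPM in Ex. Their 11 sharply induced members summed to 544 and 636 CPM in Sed and 736 and 260 CPM in Ex, with overlap. The share in a high interferon state was 5.88% (1 of 17 cells) and 0% (0 of 39) in Sed. It was 7.78% (7 of 90) and 6% (3 of 50) in Ex, above both Sed libraries but on few cells.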
